A study of Mus musculus with 4 samples.

Results

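The enzymes and chaperones that fold and hydroxylate newly made collagen chains were followed in muscle stem cells cultured on a soft or a stiff surface. They are 10 genes chosen by name and not by a cut on a measured value: Serpinh1, P3h1, P3h3, P3h4, Crtap, P4ha1, P4ha2, Plod1, Plod2 and Plod3. Earlier results of these data were known when they were chosen. All 10 were present among the 13772 genes of the tables. Muscle stem cells came from young and aged (old in the labels) WT C57BL/6 mice and spent 7 days on polydimethylsiloxane, an elastic silicone polymer, of 12 kPa (soft) or 29 kPa (stiff), in medium with fetal bovine serum. They were then lifted with trypsin and their RNA was sequenced from the 3′ end, cell by cell, in droplets. Each pairing of age and surface is 1 library, which leaves every difference without replicates and without a test. The labels used here do not say how many months old the mice were, how many stood behind a library or whether they were pooled. Where 4 values follow each other they are in the order young soft, young stiff, aged soft, aged stiff.

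Collagen chains are modified in the endoplasmic reticulum before they wind into a triple helix. Prolyl 4-hydroxylases, whose catalytic alpha subunits are P4ha1 and P4ha2, hydroxylate prolines and so make the helix stable at body temperature. Prolyl 3-hydroxylase P3h1 works in a complex with Crtap and the cyclophilin Ppib, while P3h3 and the non-enzymatic P3h4 act together with lysyl hydroxylase Plod1. Lysyl hydroxylases Plod1, Plod2 and Plod3 make the hydroxylysines used for sugar attachment and for crosslinks, and Plod2 acts on the telopeptides at the chain ends. Serpinh1, also called Hsp47, is a chaperone that binds the folded procollagen helix until it leaves the endoplasmic reticulum. The hydroxylases need oxygen, iron, 2-oxoglutarate and ascorbate, and P4ha1, P4ha2 and Plod2 are known targets of the hypoxia-inducible factor HIF. In muscle, stem cells and fibroblasts both make collagens of the niche around the fibre.

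The tables used here held 1333 to 1739 cells a library, of which 1333 to 1738 were kept, with a median of 28611 to 37081 unique molecular identifiers (UMIs, molecules counted once each) per kept cell. Every level below is the average over a library's cells of CPM, a gene's UMIs scaled so that every cell has the same total. Of all libraries, young soft and aged stiff shared 1 cell barcode and no other pair shared any. Muscle markers were expressed: Myod1 was between 897 and 943 CPM in the 4 libraries. Of 7 stem and progenitor markers, 6 were in the tables, and all but Myod1 differed with age. Lower in the aged libraries were Pax7, at 72.7, 66.2, 41.8 and 32.0 CPM, and Myf5, at 108.6, 81.9, 63.3 and 56.0 CPM. Vcam1 was lower too, at 22.3, 18.7, 10.4 and 8.08 CPM. Cdh15, at 155.5, 147.6, 218.9 and 214.0 CPM, and Des, at 3107, 3453, 4487 and 5074 CPM, were higher there. Defining fibroblast markers were near 0, with Pdgfra at 0.432 to 0.653 CPM, Lum at 0 to 0.854 CPM and Dcn at 0.883 to 2.34 CPM. Dpt, of the same list, was at 5.78 and 5.45 CPM in the young and 0.0948 and 0.465 CPM in the aged libraries. The 8 fibroblast markers in the tables summed to 161, 165, 178 and 143 CPM in the 4 libraries, mostly from Gsn and Pdgfrb, which are not restricted to fibroblasts. Pdgfrb was at 26.9, 27.1, 16.2 and 10.6 CPM, and 4 smooth muscle and pericyte markers summed to 70.1, 70.02, 34.0 and 27.3 CPM, of which Notch3, also made by muscle stem cells, gave most, at 62.0, 60.1, 26.5 and 22.6 CPM. Dpt, Pdgfrb and Notch3 were thus lower in the aged libraries. Thy1, of the fibroblast list, was higher there, at 4.4, 3.8, 12.7 and 8.7 CPM in the 4 libraries. The 4 tendon markers summed to 145, 169, 295 and 304 CPM, nearly all from Scx, at 139, 162, 292 and 301 CPM. The part of these genes in the members' age differences was not tested. Differentiation differed with age: 8 myocyte markers summed to 26578 and 29280 CPM in the young libraries and to 45325 and 51523 CPM in the aged ones. In the same order, 6 cycling markers summed to 823 and 830 CPM against 284 and 213 CPM. Because CPM adds to a fixed total, contractile transcripts lower the CPM of all other genes in differentiated cells, and the members were therefore also compared at equal level of Myog, the transcription factor that starts terminal differentiation of myoblasts.

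In 3 members the level was lower in aged cells by at least 0.32 on the log2 scale in every Myog range on both surfaces. This is described below, and their promoters are printed for that reason. Each is the 250 bases before the start site that RefSeq gives on GRCm38.p6, with the core of the HIF binding motif in capitals (ACGTG or GCGTG, and CACGT or CACGC on the other strand). Serpinh1 (ENSMUSG00000070436) is at chr7:99353240-99353489 on the minus strand, P4ha1 (ENSMUSG00000019916) at chr10:59323046-59323295 on the plus strand, and P4ha2 at chr11:54100674-54100923 on the plus strand.
Serpinh1: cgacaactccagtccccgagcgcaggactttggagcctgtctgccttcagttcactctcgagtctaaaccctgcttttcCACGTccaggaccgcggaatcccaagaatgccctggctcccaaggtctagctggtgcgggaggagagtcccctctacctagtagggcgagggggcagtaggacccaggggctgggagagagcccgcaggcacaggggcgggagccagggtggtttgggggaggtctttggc
P4ha1: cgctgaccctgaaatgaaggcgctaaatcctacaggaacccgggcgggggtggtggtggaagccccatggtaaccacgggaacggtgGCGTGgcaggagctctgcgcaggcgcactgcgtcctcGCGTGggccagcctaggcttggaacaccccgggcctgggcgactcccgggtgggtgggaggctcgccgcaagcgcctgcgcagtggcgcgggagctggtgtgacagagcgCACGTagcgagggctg
P4ha2: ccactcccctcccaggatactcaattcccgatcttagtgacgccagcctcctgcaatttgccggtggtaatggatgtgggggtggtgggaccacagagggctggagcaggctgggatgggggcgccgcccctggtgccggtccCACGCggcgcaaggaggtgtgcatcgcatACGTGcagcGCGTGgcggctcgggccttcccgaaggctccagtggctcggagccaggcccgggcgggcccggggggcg
The printed stretch held 1 core in Serpinh1, 3 in P4ha1 and 3 in P4ha2. In windows of 300 bases that reach 50 bases past the start site, 7 of the 8 members with an entry held at least 1 core and P3h3 held none, while 43.8% of all 32851 promoter windows held one. P3h4 and Plod2 had no entry. The endoplasmic reticulum stress element, CCAAT and CCACG with 9 bases between them on either strand, was in 0.119% of all windows and in 0 of the 8 members. A pair of inverted heat shock units, GAA and TTC in either order with 2 bases between them, was in 15.1% of all windows and in 2 members, P4ha2 and Plod1. These letter matches are descriptions of the windows, not sites of binding.

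Serpinh1 was far lower in aged than in young cells on both surfaces. It stood at 498.6 CPM in young soft, 502.7 CPM in young stiff, 179.8 CPM in aged soft and 157.0 CPM in aged stiff. Both young libraries were above both aged ones, and the surfaces differed little within either age. Its mean was 2.77-fold lower in aged than in young cells on soft and 3.20-fold lower on stiff, log2 ratios of −1.45 and −1.65 on the scale of mean CPM plus 5. The ratio of summed UMIs, aged over young, was 0.323 on soft (95% exact conditional binomial interval 0.315 to 0.332) and 0.279 on stiff (0.272 to 0.286). These intervals, like all below, cover counting error alone and not the spread between animals or cultures. The median cell held 379 and 375 CPM in the young libraries and 81.6 and 67.1 CPM in the aged ones. That median also depends on the mixture of cells, which differed with age. A Serpinh1 UMI was found in 96.4% and 94.4% of young cells and in 80.8% and 79.6% of aged cells; no cell type that lacks these genes was at hand to show what free RNA gives.

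The prolyl 4-hydroxylase subunits were also lower in aged cells. P4ha1 measured 96.96 CPM in young soft, 91.4 CPM in young stiff, 50.7 CPM in aged soft and 50.99 CPM in aged stiff, log2 ratios for age of −0.87 on soft and −0.78 on stiff. P4ha2 was at 20.3, 20.003, 9.02 and 10.1 CPM in the same order, with log2 ratios of −0.85 and −0.73. In each gene both young libraries were above both aged ones. P4hb, the beta subunit both enzymes share, had log2 ratios of −0.38 and −0.33. Weighted to the same Myog shares in both libraries, as described below, P4hb was at −0.22 and −0.15 and Ppib at −0.18 and −0.17. These weighted ratios are under the size counted below. P4hb and Ppib are named outside the rule for named genes, after their values were seen.

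In the prolyl 3-hydroxylase complex, Crtap, its helper subunit, measured 23.3 and 23.7 CPM in young soft and stiff against 11.5 and 10.6 CPM in aged soft and stiff, log2 ratios of −0.78 and −0.88. P3h1, the catalytic subunit, was at 20.5 and 18.99 CPM in young cells and at 14.96 and 15.8 CPM in aged cells, log2 ratios of −0.36 and −0.20. Ppib, the third partner, had log2 ratios of −0.38 and −0.53. The age ratios of this complex were unequal, with that of Crtap the lowest on both surfaces. In the reference annotation an antisense gene overlaps the end of Crtap. The Crtap value is therefore uncertain by an amount not measured, since no source used here says how the counting treated strand.

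Among the lysyl hydroxylases, Plod2 differed most with age. It stood at 179.5, 164.1, 110.6 and 97.4 CPM, log2 ratios of −0.67 and −0.72. Plod1 was at 26.8, 28.3, 24.2 and 22.97 CPM, log2 ratios of −0.12 and −0.25, and Plod3, which also carries glycosyltransferase activity, at 31.8, 34.4, 30.3 and 27.6 CPM, log2 ratios of −0.06 and −0.27. Neither Plod1 nor Plod3 differed by 0.32 on the log2 scale on either surface, the size counted below. P3h4, the scaffold of the Plod1 complex, was at 47.0, 48.0, 37.7 and 34.6 CPM, log2 ratios of −0.28 and −0.42. P3h3 was at 17.7, 24.99, 10.6 and 6.59 CPM, log2 ratios of −0.54 and −1.37, and is taken up separately below since few cells carried it.

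**Figure D1:**
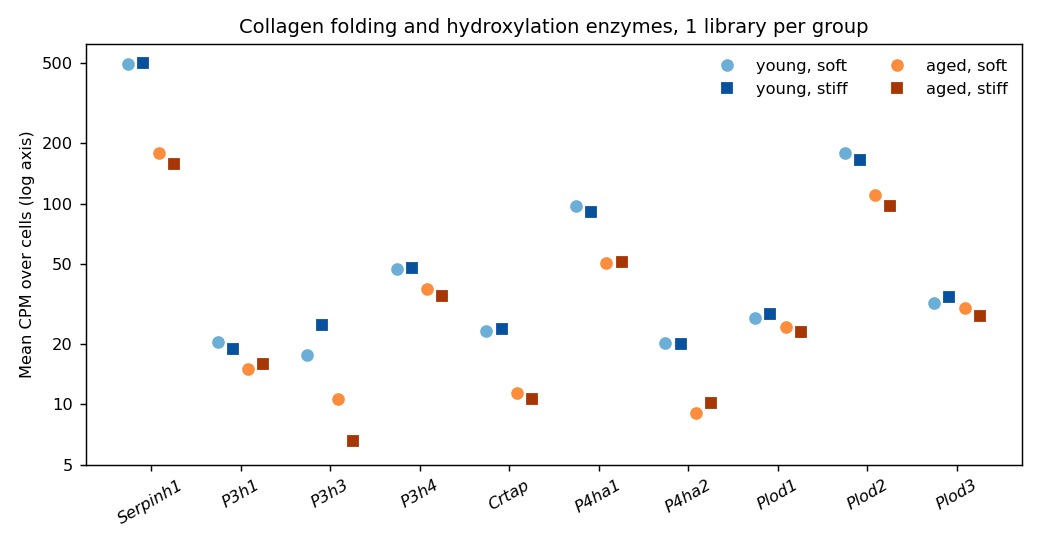
Mean CPM over cells (log axis) of the 10 collagen folding and hydroxylation genes in the 4 libraries, circles for soft, squares for stiff, blue for young and orange to brown for aged, 1 library per group and no error bars. Serpinh1 lies near 500 CPM in both young libraries and at 179.8 and 157.0 CPM in the aged ones, while the points of Plod1 and Plod3 lie close together.

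Counted together, all 10 members had a lower mean in aged than in young cells on both surfaces, where 64.7% of all tested genes on soft and 64.4% on stiff also had a log2 ratio below 0. A gene is called tested where it had 20 CPM or more in at least 1 of the libraries compared; no statistical test is meant. Of the 10 members, 7 were lower in aged cells by at least 0.32 on the log2 scale on soft and 7 on stiff, and 0 were higher by that size. Among the 9 tested members these counts were 6 on soft and 7 on stiff. Over all tested genes the share lower by that size was 28.1% on soft and 29.5% on stiff, and the share higher was 9.87% and 11.1%. The median log2 ratio of the 10 members was −0.60 on soft and −0.72 on stiff, against −0.12 and −0.13 for all tested genes. Rescaling each pair of libraries by the median ratio over genes shifted ratios by about 0.11 on soft and 0.10 on stiff. Serpinh1 was then at −1.34 and −1.55 and P4ha1 at −0.77 and −0.69, while P3h1 on soft dropped out of the count at −0.27 and Plod3 on soft turned to 0.03.

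The members differed little between the surfaces. In young cells the 10 members had a median log2 ratio, stiff against soft, of 0.02 against −0.03 for all 6034 tested genes. In aged cells it was −0.09 against −0.03 for 5552 genes. Serpinh1 had log2 ratios of 0.01 in young and −0.19 in aged cells, P4ha1 of −0.08 and 0.01, and Plod2 of −0.13 and −0.17. A log2 difference of 0.32 in either direction was reached by 1 of 10 tested members in young cells, P3h3, where 0.779% of all tested genes reached it, and by 0 of 6 in aged cells, where 2.2% did. At 1.5-fold the count in young cells was 0, where 0.166% of tested genes were past that fold. The age and stiffness comparisons share libraries, so their ratios are not independent of each other.

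Cells were then divided by their own Myog level into under 100, 100 to under 1000, 1000 to under 3000, and 3000 CPM or more. The groups are ranges of a continuous level and not cell types. Under 100 CPM fell 38.1%, 36.6%, 19.3% and 14.5% of the cells of the 4 libraries. Pax7, the stem cell transcription factor, averaged 153 to 163 CPM in these cells and 6.24 to 9.10 CPM in cells with 3000 CPM or more of Myog.

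Most members were high in cells with little Myog and low in cells with much of it. From under 100 CPM to 3000 CPM or more of Myog, Serpinh1 went from 865 CPM to 319 CPM in young soft, from 893 to 314 CPM in young stiff, from 450 to 159 CPM in aged soft and from 478 to 164 CPM in aged stiff. The low-Myog level was between 2.72-fold and 2.92-fold above the high-Myog level in each library. Crtap showed a steeper course, from 45.8 to 12.2, 49.1 to 9.94, 34.9 to 7.29 and 36.2 to 8.63 CPM in the same order of libraries. Plod1 went from 37.9 to 16.3 CPM and Plod3 from 48.0 to 22.3 CPM in young soft, with similar courses in the other 3 libraries. By at least 0.32 on the log2 scale, 8, 8, 9 and 9 of the 10 members were lower at high Myog in the 4 libraries. Among tested members these counts were 8 of 9, 8 of 9, 7 of 8 and 7 of 8. Over all tested genes 40.7%, 44.1%, 43.4% and 42.8% were lower by that size, and the medians of all tested genes were between −0.18 and −0.23. The members' medians were −0.83, −0.84, −0.82 and −0.96.

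P4ha1 ran the other way. It was at 78.5 CPM under 100 CPM of Myog and 119.7 CPM at 3000 CPM or more in young soft, at 74.6 and 114.6 CPM in young stiff, at 40.1 and 58.7 CPM in aged soft and at 42.5 and 59.5 CPM in aged stiff. The level was thus 1.40-fold to 1.54-fold higher at high Myog in every library, and P4ha1 was the 1 member higher by at least 0.32 on the log2 scale, where 21.1%, 20.6%, 20.4% and 19.7% of tested genes were. P4ha2, the other alpha subunit, was at 19.8 and 16.2 CPM in young soft and at 12.0 and 6.79 CPM in aged soft. In young cells its level was greatest between 1000 and 3000 CPM of Myog, at 23.7 CPM (soft) and 25.7 CPM (stiff).

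The course along Myog was not one of steady decline. Serpinh1 was lower at 1000 to under 3000 CPM of Myog, with 194, 207, 98.4 and 85.5 CPM, than at 3000 CPM or more. Plod2 had the same dip in each library, and P3h4 in young soft stood at 66.3, 32.5, 31.0 and 43.1 CPM over the 4 ranges. The summed contractile genes moved with this dip: in young soft cells they averaged 49723 CPM at 1000 to under 3000 CPM of Myog and 27225 CPM at 3000 CPM or more, and their part in it was not tested.

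**Figure D2:**
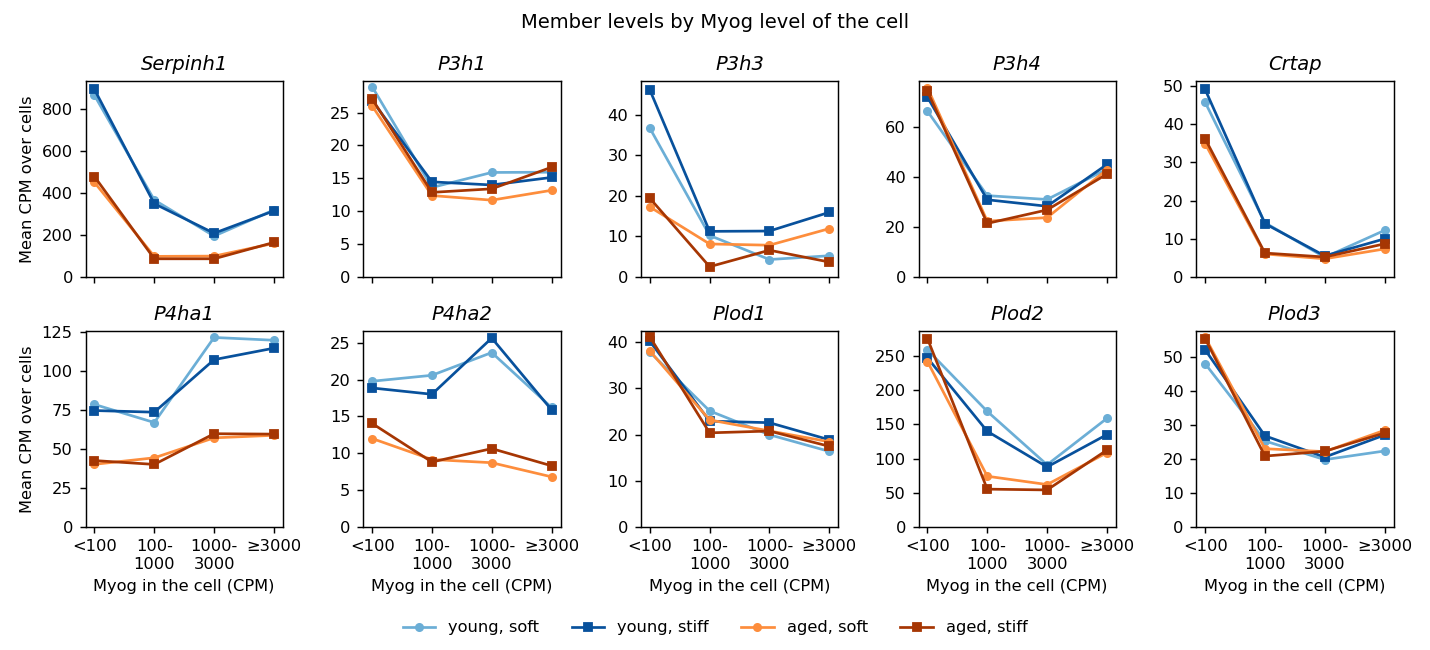
Mean CPM over cells of each of the 10 members in 4 ranges of the cell's Myog level, 1 panel per gene with its own axis from 0, 1 line per library. Serpinh1 and Crtap drop from the lowest Myog range in all 4 libraries, P4ha1 is higher at the right end than at the left in all 4, and the young and aged lines of Serpinh1, P4ha1 and P4ha2 stay apart in every range.

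Since aged libraries held fewer cells with little Myog, the age ratios were recomputed with each of the 4 ranges given its share over all cells of the study, the same in every library. Serpinh1 then had log2 ratios of −1.08 on soft and −1.09 on stiff, P4ha1 of −0.90 and −0.81 and P4ha2 of −0.83 and −0.68. These 3 genes were lower in aged cells by at least 0.32 on the log2 scale in each of the 4 Myog ranges on both surfaces, P4ha2 only just so in the lowest range on stiff, at −0.33. In those ranges, from low to high Myog, 16.5%, 34.2%, 17.9% and 17.6% of tested genes were lower by that size on soft and 15.2%, 30.6%, 16.3% and 10.3% on stiff. Plod2 was at −0.44 and −0.27 and Crtap at −0.40 and −0.36. Smaller weighted ratios remained for P3h1 (−0.19 and −0.01), P3h4 (−0.06 and −0.08), Plod1 (0.01 and −0.05) and Plod3 (0.14 and 0.01). P3h3 was at −0.26 and −0.98. After weighting, 5 of 10 members were lower by that size on each surface, with Plod2 among them on soft and P3h3 on stiff, where 17.1% of tested genes on soft and 13.6% on stiff were. Only 7 members on soft and 8 on stiff were tested after weighting. Crtap, counted among the 5 on both surfaces, was under 20 CPM there and so not tested.

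In cells under 100 CPM of Myog the age ratios of Serpinh1 and P4ha2 were nearer to 1 than in the other ranges, except that Serpinh1 on stiff had the same ratio at 3000 CPM or more. Serpinh1 was there at 865, 893, 450 and 478 CPM. Its summed-UMI ratio, aged over young, was 0.527 on soft (0.506 to 0.549) and 0.522 on stiff (0.501 to 0.543). At 100 to under 1000 CPM of Myog the same ratios were 0.213 and 0.218. Cells of that range were not alike between ages. Their summed contractile genes averaged 31318, 38633, 54777 and 61019 CPM in the 4 libraries, and their cycling genes 764, 719, 106 and 138 CPM. The range also enters the weighted ratios, and the part of this mixture in them was not tested. In cells under 100 CPM P4ha1 had ratios of 0.493 (0.430 to 0.564) and 0.566 (0.494 to 0.647), and P4ha2 of 0.632 (0.491 to 0.805) and 0.744 (0.581 to 0.944). Plod2, by contrast, was at 259, 247, 242 and 276 CPM, so that its aged level on stiff was above the young one. Plod1, at 37.9, 40.2, 38.1 and 41.2 CPM, and P3h1, at 28.9, 26.8, 26.0 and 27.1 CPM, also lay within a narrow range across ages.

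Myog alone did not make these cells alike. Their summed contractile genes averaged 559, 270, 2243 and 4184 CPM in the 4 libraries. Cells that were also in the lowest quartile of contractile expression numbered 454, 490, 181 and 88. In them Serpinh1 still had log2 ratios of −0.93 on soft and −0.83 on stiff and P4ha1 of −0.87 and −0.98. P4ha2 had −0.51 and −0.16. Weighting by quartiles of contractile expression in place of Myog gave −0.90 and −0.82 for Serpinh1, −0.97 and −0.90 for P4ha1, −0.85 and −0.68 for P4ha2 and −0.21 and 0.01 for Plod2.

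**Figure D3:**
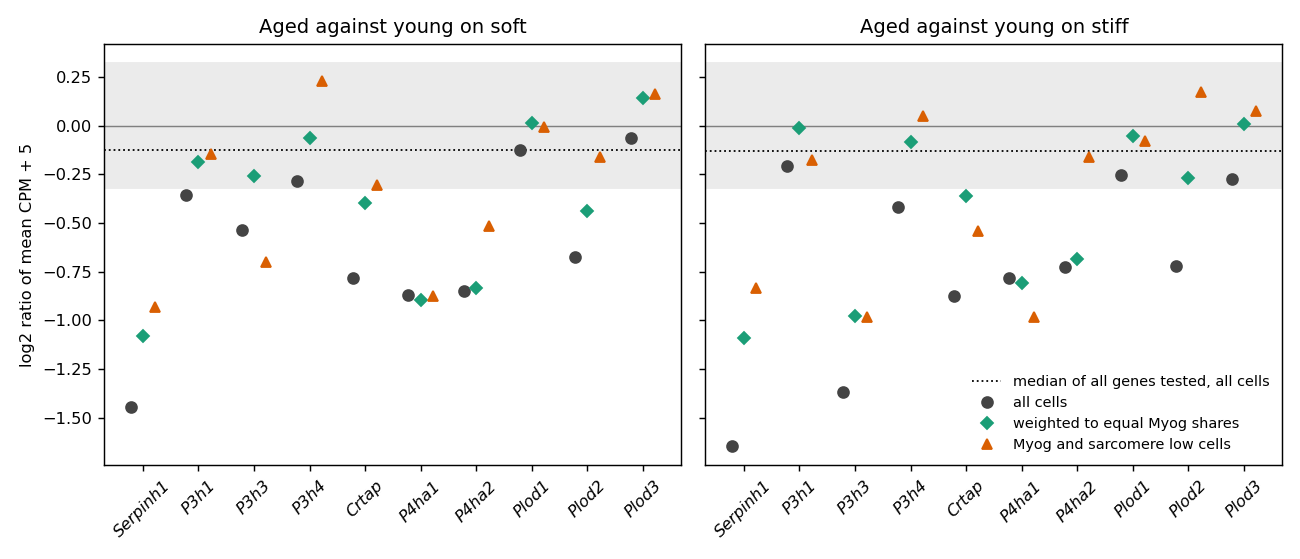
Log2 ratio of mean CPM plus 5, aged against young, for each member on soft (left) and stiff (right): all cells (circles), the 4 Myog ranges weighted to the same shares in both libraries (diamonds) and cells low in both Myog and contractile genes (triangles). The grey band marks differences under 0.32 and the dotted line the median of all tested genes; Serpinh1 and P4ha1 lie below the band in all 3 views on both surfaces, while Plod1 and Plod3 lie inside it.

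The share of cycling cells also differed with age, so the low-Myog cells were divided at 200 CPM of 6 summed cycling genes. Cycling cells made up 53.1%, 50.6%, 34.6% and 32.1% of low-Myog cells, and between 26 and 56 cells a library lay near the dividing value, at 100 to 400 CPM. Serpinh1 had age log2 ratios of −0.74 on soft and −0.65 on stiff in cycling cells and of −1.09 and −1.06 in the others, and P4ha1 of −1.07 and −0.83 in cycling cells and −0.83 and −0.77 in the others. P4ha2 had −0.36 and −0.13 in cycling cells and −0.61 and −0.45 in the others, so on stiff it did not reach the size counted in cycling cells. P3h1 was lower in cycling than in other cells of young soft (21.4 against 37.4 CPM), young stiff (18.9 against 34.9 CPM) and aged soft (17.3 against 30.6 CPM), but not of aged stiff (27.5 against 26.9 CPM).

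Within low-Myog cells the members were also read beside the collagen chains they act on. Cells were divided into 3 ranges of their summed collagen chain CPM, below 1548, up to 2446 and above, with the same limits in all libraries. Serpinh1 stood in the lowest and the highest range at 728 and 989 CPM in young soft, 780 and 989 CPM in young stiff, 380 and 526 CPM in aged soft and 370 and 605 CPM in aged stiff. The highest-collagen aged cells were thus still below the lowest-collagen young cells in Serpinh1. By at least 0.32 on the log2 scale, 10, 9, 5 and 8 of the 10 members were higher in the highest range than in the lowest, where 14.7%, 14.5%, 17.6% and 22.3% of tested genes were. Of the members, 10, 10, 9 and 9 were tested here. P4ha2, under 20 CPM in both ranges of the aged libraries, was the one not tested there, and it was counted in aged stiff. P4ha1 went from 58.2 to 96.3 CPM and from 61.9 to 90.5 CPM in the young libraries, and from 37.0 to 46.3 CPM and from 43.0 to 42.3 CPM in the aged ones. Whether that course differs between ages was not tested. P4ha2 had age log2 ratios on stiff of 0.04 in the lowest, −0.47 in the middle and −0.32 in the highest range, against −0.37, −0.61 and −0.56 on soft. Cells of 1 library share a culture and are not replicates.

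**Figure D4:**
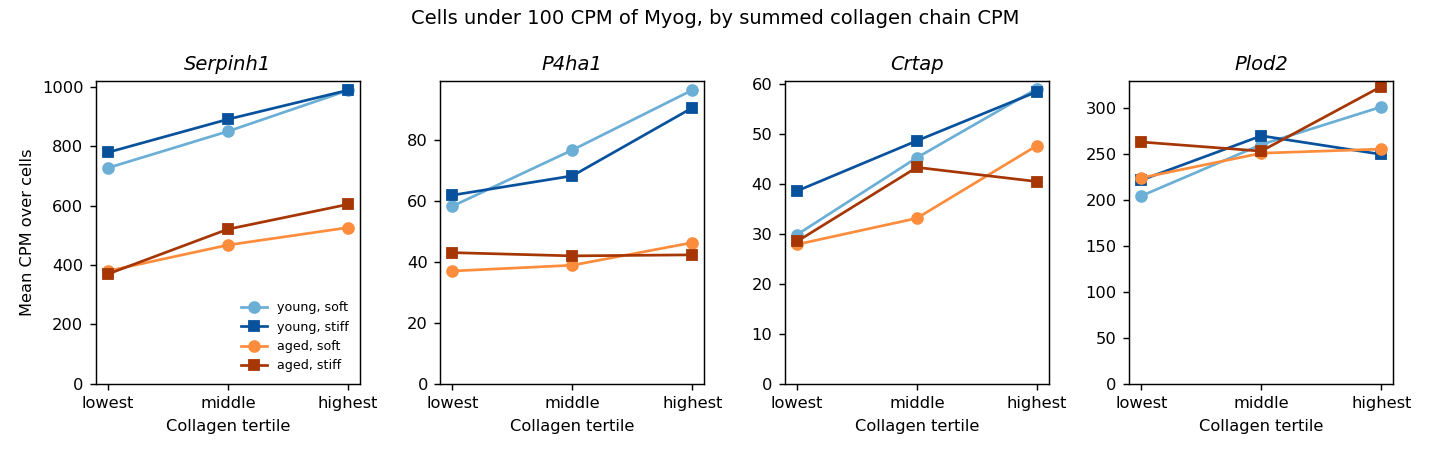
Mean CPM of Serpinh1, P4ha1, Crtap and Plod2 in cells under 100 CPM of Myog, by range of summed collagen chain CPM, 1 line per library and axes from 0. Serpinh1 is higher at the right end than at the left in all 4 libraries, and both aged lines stay below both young lines.

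P3h3 needs a reading of its own. In each library its 10 highest cells held 35.5%, 32.7%, 39.4% and 33.2% of its UMIs, against 2.93% to 9.30% for the other 9 members. The cell with most P3h3 UMIs had 54, 64, 26 and 20 of them. P3h3 was 24.99 CPM in young stiff against 17.7 CPM in young soft, a log2 ratio of 0.40, and 6.59 CPM in aged stiff against 10.6 CPM in aged soft, a log2 ratio of −0.43. With each cell's UMIs capped at 5, an alternative chosen after seeing the data, these ratios were 0.10 and −0.16, and the age ratios −0.55 on soft and −0.80 on stiff. A P3h3 UMI was found in 19.9% and 18.2% of young cells and in 9.68% and 9.44% of aged cells. Thinned to 10000 UMIs per cell, the shares were 9.68% (8.16% to 11.4%) and 9.81% (8.34% to 11.4%) in young soft and stiff, and 4.69% (3.61% to 5.97%) and 3.92% (3.05% to 4.94%) in aged soft and stiff. Thinning left out 7, 11, 11 and 2 shallower cells. Over whole libraries, aged shares were below young ones, and the intervals of the surfaces overlapped within each age. Within cells under 100 CPM of Myog the thinned shares were 18.7% (15.4% to 22.4%), 16.9% (13.9% to 20.4%), 9.80% (6.45% to 14.1%) and 13.1% (9.23% to 18.0%), so that the intervals of the ages overlapped on stiff and not on soft. At 1000 to under 3000 CPM of Myog they were 2.62%, 3.23%, 3.39% and 3.41%, with the aged shares not lower. Along Myog the surface ratio of P3h3 was uneven: summed UMIs, stiff over soft, gave 1.26 in young and 1.16 in aged cells under 100 CPM of Myog, and 3.03 and 0.266 at 3000 CPM or more. The last 500 bases of the P3h3 transcripts in the reference annotation share 16.8% of their stretches of 30 bases with other genes, against 0% for the other members, so its value is uncertain.

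**Figure D5:**
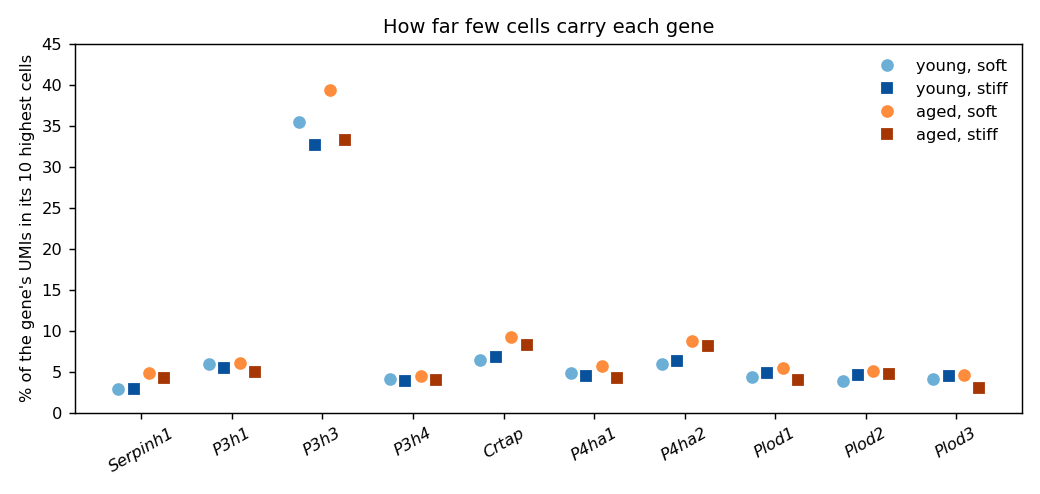
Percentage of each member's UMIs that lie in its 10 highest cells, by library. P3h3 lies between 32.7% and 39.4% and the other 9 members below 10%.

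The remaining genes of the pathway were read from lists, each counted over its members at 20 CPM or more, against the 28.1% on soft and 29.5% on stiff of all tested genes that were lower in aged cells by 0.32 on the log2 scale. Collagen chains were lower for 10 of 13 genes on soft and 11 of 13 on stiff. Col6a3, a microfibril chain, was at 81.1 CPM in young soft and 19.0 CPM in aged soft, a log2 ratio of −1.84, and had −2.27 on stiff. Col4a1, a basement membrane chain, had −1.36 and −1.44, and Col5a3, a minor fibril chain, −1.69 and −1.64. Not every chain was lower: Col1a2 had 0.13 on soft and −0.44 on stiff, and Col12a1 0.03 and −0.03. Weighted to equal Myog ranges, Col1a2 had 0.78 and 0.41 and Col12a1 0.34 and 0.40, where the list median was −0.43 and −0.36. Col1a2 and Col12a1 are named outside the rule for named genes, after their values were seen. Other collagen folding and modification genes were lower for 8 of 11 on both surfaces. Of these, Pdia3, a disulfide isomerase, had −0.83 and −0.84, and the collagen-binding protein Sparc −0.75 and −0.95. Tmem38b, an endoplasmic reticulum cation channel that collagen modification depends on, was the 1 gene of the list that was higher, at 138.9 and 131.9 CPM in young and 235.8 and 234.3 CPM in aged cells, log2 ratios of 0.74 and 0.81.

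General endoplasmic reticulum chaperones were lower for 11 of 17 genes on soft and 10 of 17 on stiff, led by Hsp90b1, the reticulum's Hsp90, at −1.05 and −1.13 and Pdia4 at −1.01 and −1.15. Genes of collagen export from the endoplasmic reticulum were lower for 4 of 16 on soft and 3 of 15 on stiff, shares near those of all genes. Kdelr2, a retrieval receptor that also binds Serpinh1, had −0.66 and −0.70. Processing and crosslinking genes outside the cell were lower for 2 of 5 and 4 of 5, and 1 of 5, Pcolce, a procollagen processing enhancer, was higher on soft at 0.32. The median of this list was −0.26 on soft and −0.55 on stiff but turned to 0.24 and 0.12 when weighted to equal Myog ranges. The crosslinking enzyme Lox had −0.74 and −0.67 and the proteoglycan Bgn −0.92 and −1.37.

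Lists linked to the regulation or the cofactors of the hydroxylases were read in the same way. HIF targets were lower for 5 of 9 on soft and 4 of 9 on stiff, with the glucose transporter Slc2a1 at −0.71 and −0.61 and Vegfa at −0.47 and −0.51. The median of the HIF targets was −0.45 on soft and −0.12 on stiff, against −0.12 and −0.13 for all tested genes. Slc2a1 is also in the list that follows. Genes of 2-oxoglutarate and ascorbate supply and other dioxygenases were lower for 3 of 6 on both surfaces, with Idh2, the mitochondrial isocitrate dehydrogenase that makes 2-oxoglutarate, at −0.70 and −0.69. Tgf-beta pathway genes were lower for 7 of 9 and 5 of 8. Tgfb1, its ligand, had −0.94 and −1.08, and the inhibitor Smad7 −1.25 and −1.28. The cell mixture differs between ages in all these counts: weighted to equal Myog ranges, the list medians on soft and stiff moved from −0.94 and −1.12 to −0.43 and −0.36 for collagen chains. For other folding and modification genes they moved from −0.38 and −0.53 to −0.15 and −0.16, and for the chaperones from −0.56 and −0.56 to −0.42 and −0.41. The median of the HIF targets moved to −0.40 and −0.27, on stiff away from 0. That of 2-oxoglutarate and ascorbate supply and other dioxygenases went from −0.37 and −0.36 to −0.25 and −0.17. For the Tgf-beta pathway it went from −0.43 and −0.39 to −0.37 and −0.23. All tested genes, weighted in this way, had medians of −0.08 and −0.07.

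Over the 16 points made by 4 libraries and 4 Myog ranges, which share libraries and so are not independent, Serpinh1 was most like Plod2 among the members, with Pearson's r of 0.95 between log2 levels. P4ha1 and P4ha2 had r of 0.68, and P4ha1 and Plod1 −0.35. Among 5586 genes searched, those most like Serpinh1 were Smc1a, Sdc3 and Prelid1 (r of 0.99 for each). P4ha1 was most like Ncam1, Map3k4 and Azin1, with r of 0.92, 0.92 and 0.91. For the other members the highest r lay between 0.91 (P3h3 with Apoe) and 0.99 (Crtap with Mmd, and P3h4 with Pnisr). The 16 points differ in age and surface as well as in Myog range, so these correlations do not separate age from differentiation.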

How the data were processed

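RNA of single cells was read in 4 libraries, 1 per combination of age and stiffness, with the droplet 3′ v3 kit that the labels' protocols name. The submitters' processing notes list Cell Ranger 6.1.2 and Partek but not what each did. Build, annotation, strand handling and filters are not given in the sources used here. Values as deposited were log2(CPM + 1) for each cell over 13772 genes, a unit read from the values, and another deposited table paired symbols with Ensembl identifiers. UMIs were recovered from the steps between values: 99.95% to 99.96% of values above 0 came out whole within 0.05 of a UMI, and the 11 symbols that did not include no member. The tables as deposited held no counts, and the recovered UMIs were used for the intervals. With 1 library a group, no count model with a spread between replicates was fitted.

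A cell was kept if it had 500 genes or more and no more than 20% mitochondrial UMIs, and no doublet caller was run, so doublets remain. Total UMIs were 50361183, 44004619, 47503841 and 68244857 in the order young soft, young stiff, aged soft, aged stiff. A difference is the log2 of the ratio of 2 mean CPM values, each raised by 5, which understates low genes. Genes reaching 20 CPM in 1 of the libraries compared counted as tested, and 0.32 on the log2 scale was the size counted. With 1 library a group there is neither a test nor a standard error. Intervals are 95%: exact conditional binomial for ratios of summed UMIs and exact binomial for shares of cells. Genes named are all 10 members, the 3 largest absolute log2 ratios of each of 8 lists (the text prints those shared by both surfaces, or most of them) and the 3 genes most like each member. The members, lists and rules were chosen with earlier results of these data known. Promoter sequences and motif counts are from RefSeq on GRCm38.p6, with 8 of 10 members matched by symbol. Scripts were tested on simulated data; Python 3.11.15, numpy 2.4.6, pandas 2.3.3 and scipy 1.17.1 were used. Alternatives tried were the pseudocount, the filter, the fold, summed UMIs, median-of-ratios scaling, all cells, thinning to 2000 UMIs, other ranges along differentiation and, added after seeing the data, leaving out cells with under 1% mitochondrial UMIs or with a fibroblast marker UMI and capping P3h3.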

Additional observations from a re-analysis of the deposited data

Results flagged for a closer look

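P3h3, a partner of the Plod1 complex, had stiffness ratios of opposite sign in the 2 ages over all cells: its log2 ratio, stiff against soft, was 0.40 in young and −0.43 in aged cells, a difference of −0.84, aged minus young. This difference was not tested, since each group is 1 library. In aged cells P3h3 was under 20 CPM in both libraries. With each cell's UMIs capped at 5, the ratios were 0.10 and −0.16, and the 10 highest cells held between 32.7% and 39.4% of its UMIs in the 4 libraries. The signs were not opposite in every range of Myog: summed UMIs, stiff over soft, gave 1.26 (1.13 to 1.40) in young and 1.16 (0.892 to 1.51) in aged cells under 100 CPM of Myog. These intervals count each UMI as independent and are too narrow for a gene carried by few cells. In the same young cells the thinned share with a P3h3 UMI was lower on stiff, 16.9% against 18.7% on soft, with overlapping intervals. In aged cells the ratio of summed UMIs, stiff over soft, was 0.285 at 100 to under 1000 CPM, 0.927 at 1000 to under 3000 CPM and 0.266 at 3000 CPM or more. In young cells it was 1.01, 3.48 and 3.03 in these ranges. The part of these cells in the difference beyond these values was not tested.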

How the results depend on the processing

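No paired analysis was possible because each group is 1 library and the labels give no replicate numbers; for the same reason no replicate could be left out. Of 284 values of single genes under alternatives, 237 moved by less than their counting interval, 47 moved further, and 0 changed sign at the size counted (0.32 on the log2 scale). The count of members past that size, aged against young, ranged from 5 to 8 on soft and from 6 to 7 on stiff. For stiff against soft, the count of 1 in young cells was 0 at a fold of 1.5, and the count of 0 in aged cells was 1 with no filter on low genes and 1 when thinned to 2000 UMIs. The members' median log2 ratio at equal Myog, aged against young, was −0.33 on soft and −0.32 on stiff. With quartiles of summed contractile genes it was −0.18 and −0.088, and with all cells unweighted −0.60 and −0.72. For these changes the cause was not tested. At 2000 UMIs per cell, genes near 20 CPM rest on few UMIs: Plod1, aged against young on soft, was −0.12 at full depth and 0.43 when thinned. Leaving out cells with under 1% mitochondrial UMIs, or cells with a fibroblast marker UMI, left Serpinh1 and P4ha1 lower by more than that size on both surfaces.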
